A study of Drosophila melanogaster with 2 samples.

Results

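The proteasome genes of Drosophila were taken as all protein-coding genes whose symbol begins with Prosalpha, Prosbeta, or Rpt or Rpn followed by a digit. Of 13946 protein-coding genes 48 met this rule. Symbols that end in T or R, with or without a number, name the testis or extra paralogs, of which there were 16, and the other 32 are called canonical here. The data came from ATAC-seq, in which the Tn5 transposase marks accessible DNA, on S2 cells, an established line derived from fly embryos with features of hemocytes (blood cells), grown at 25°C with no treatment named in the labels. The series, from a study of inhibitors of the Polycomb methyltransferase PRC2, held 1 group of 2 libraries of 2000000 cells each, for which 1 peak list of 35535 lines was analysed. No value per library was used, so no gene had a replicate error, and whether the cultures behind them were separate is not in the labels.

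The proteasome is the protease that degrades proteins tagged with ubiquitin. Its core particle is a barrel of rings, with alpha subunits in the outer rings and beta subunits, which carry the proteolytic sites, in the inner ones. The regulatory particle caps the barrel. Its base holds a ring of ATPases, the Rpt subunits, that unfold substrates, and its lid of Rpn subunits holds the deubiquitinase that removes ubiquitin from them. In flies many of the paralogs are known for expression in the male germline, where variant subunits join or replace the common ones during sperm formation.

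Peaks lay at the ends of nearly all canonical proteasome genes and of few paralogs. A gene was counted as open at an end when a peak overlapped the 250 bp flanking any of its annotated ends on each side. Of the 32 canonical genes 31 were open (96.9%, exact 95% binomial interval 83.8 to 99.9%), and of the 16 paralogs 3 were (18.8%, 4.05 to 45.6%). Among all 13946 protein-coding genes the share was 60.4% (8421 genes). The canonical share was thus above, and the paralog share below, the share of all genes, and neither interval reached it. The intervals treat genes as independent draws, and no test of enrichment was made. The strand of the genes was not used, so an end can be a gene's start or its finish.

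**Figure D1:**
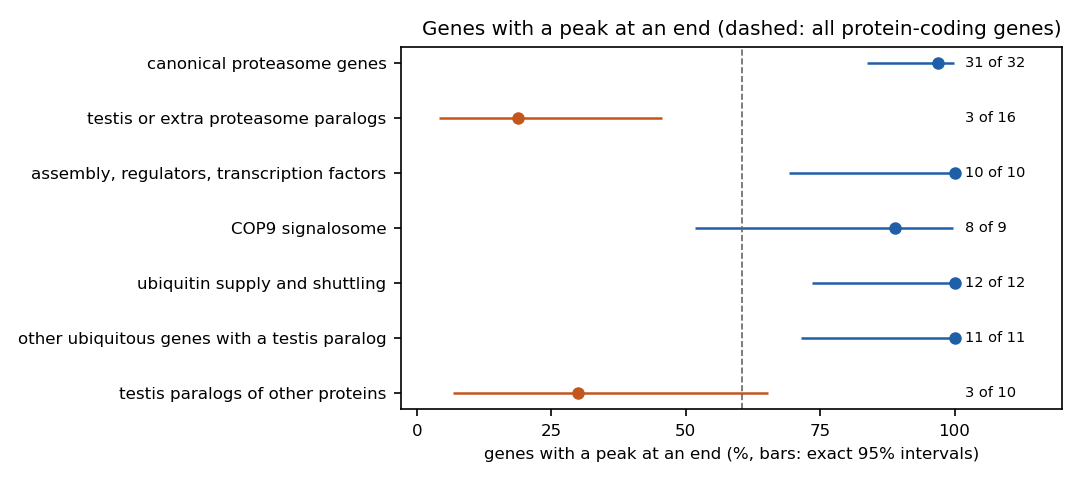
Percentage of genes with a peak within 250 bp of an end (x axis) for each gene list (y axis), with exact 95% intervals as bars, the counts at the right and a dashed line at the 60.4% of all protein-coding genes. Canonical proteasome genes stand at 96.9% and their paralogs at 18.8%, and the list of testis paralogs of other proteins stands at 30% against 100% for its ubiquitous counterparts.

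The strength of a peak is given as its pileup, the number of overlapping fragments at the summit, recovered as a whole number from the authors' fold and p columns, with an exact 95% Poisson interval that covers counting error only. The pileup of a gene is that of its strongest peak at an end. Over the 31 open canonical genes it ranged from 36 to 270, a factor of 7.50, with quartiles of 87.5 and 155.5 and a median of 113. The median over the 8421 open protein-coding genes was 98. Above that median were 21 of the 31, while 49.8% of all open genes were. The median fold of the canonical genes, the authors' ratio of summit to local background, was 8.18, and that of all open genes 7.06. The canonical genes were thus more often open than other genes, while the peaks they had were spread widely around the typical height.

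**Figure D2:**
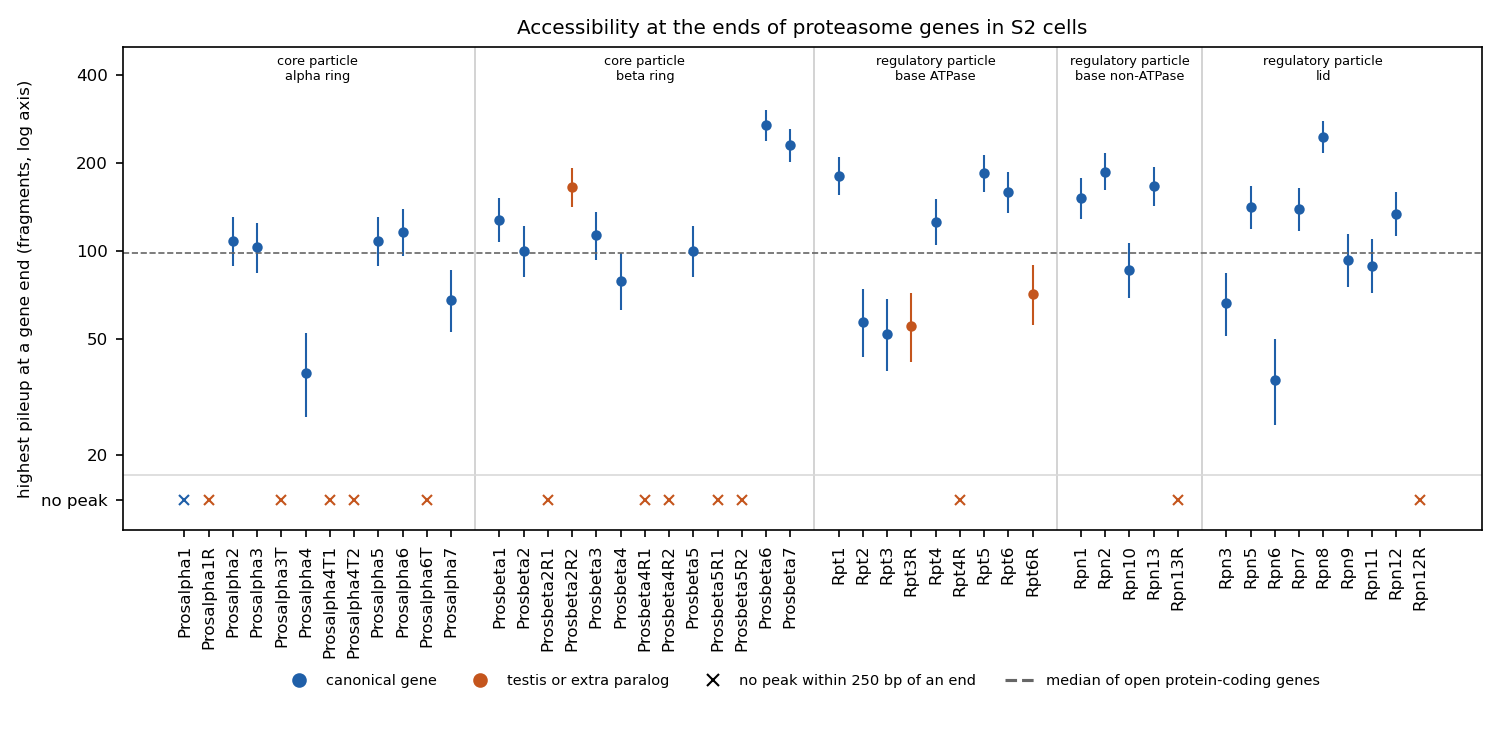
Highest pileup at a gene end in fragments (log y axis) for each of the 48 genes, grouped by the part of the proteasome, with exact 95% Poisson intervals as bars, canonical genes in blue, paralogs in orange, crosses for genes without a peak at an end and a dashed line at 98, the median of open protein-coding genes. Prosbeta6, Rpn8 and Prosbeta7 are highest, at 270, 246 and 230, and Rpn6 and Prosalpha4 are the lowest open canonical genes, at 36 and 38.

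In the alpha ring 6 of the 7 canonical genes were open, with pileups from 38 to 116. The alpha subunits form the gate through which substrates enter. Prosalpha6 had 116 (95.9 to 139), Prosalpha2 and Prosalpha5 had 108 each (88.6 to 130), and Prosalpha3 had 103 (84.1 to 125). These lay within each other's intervals. Prosalpha7 was lower, with 68 (52.8 to 86.2), at a summit 52 bp from the end of Orc6, a subunit gene of the origin recognition complex, and 99 bp from its own, with a further summit of 64 at 7 bp inside its right end. Prosalpha4 on X had 38 (26.9 to 52.2), below the intervals of the others, with a fold of 3.48, at 45 bp inside its left end, and a further summit of 33 at 19 bp outside it in the same interval of 150 bp.

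The exception among canonical genes was Prosalpha1, on 2R from 7827303 to 7828678, which had no peak at either end and no summit inside. Its neighbourhood holds the paralog Prosalpha1R at 7830413 to 7831771, which had none either. The annotation shows the same layout around both: phr, a photolyase gene, overlaps the left end of Prosalpha1 by 17 bp, and CG18853 overlaps the left end of Prosalpha1R by 17 bp. From the left end of the first to the right end of the second there were 0 summits. The nearest summit to the left lay 592 bp from Prosalpha1 with a pileup of 40 and a fold of 3.76, and the nearest to the right lay 4459 bp from Prosalpha1R with a pileup of 33 and a fold of 3.12. The stretch between these summits was 9519 bp and also covers Atg10 and CG12822. The synonyms of both genes in the annotation include Prosalpha6, an older name. The likeness of their sequences was not measured, and the treatment of reads with several matches is not given here, so the part of shared reads in the absence of peaks was not tested. The state of both genes is therefore uncertain. Prosalpha1 was the only canonical gene without a peak at an end, so without this pair 31 of 31 canonical genes were open by construction. Of the paralogs 3 of 15 (20%) were then open, against 60.4% of all genes. Leaving out the pair was chosen after seeing the data.

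In the beta ring all 7 canonical genes were open (59.0 to 100%), and 6 of them had a pileup above 98. Prosbeta6, on 3L from 16609400 to 16610418, had the highest of all members, 270 (239 to 304) with a fold of 18.8, at a summit 86 bp outside its left end and 33 bp from the end of its neighbour CG4098. A further summit of 96 lay 23 bp past its right end. Prosbeta7, on 3R from 5357012 to 5358364, followed with 230 (201 to 262) and a fold of 16.0, at a summit 165 bp inside its right end and 674 bp from the nearest end of another gene. Both encode noncatalytic subunits. The pileups of these genes were above the intervals of the other 5 beta genes, which ran from 79 at Prosbeta4 to 128 at Prosbeta1.

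The catalytic beta genes were close to the typical open gene. Prosbeta1, whose product cleaves after acidic residues, had 128 (107 to 152). Prosbeta2, with trypsin-like activity, and Prosbeta5, with chymotrypsin-like activity, had 100 each (81.4 to 122). The intervals of the 3 overlapped. At Prosbeta2, though, the summit of 100 lay 259 bp outside the gene and 26 bp from the end of mRpL39, a mitochondrial ribosomal protein gene, and the summit at its own left end, 12 bp inside, had only 37 (26.1 to 51.0). At Prosbeta5 the summit lay 9 bp outside the left end, and 85 bp from the end of dgo. On its right side a peak of 326 bp with summits of 25 and 94 reached into the window, and the stronger of these lay 399 bp past the gene and 63 bp from the end of Lsm10. Prosbeta3 had 113 (93.1 to 136) at a summit 32 bp inside its right end, and Prosbeta4 had 79 (62.5 to 98.5) at a summit 7 bp past its right end.

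All 6 canonical ATPase genes were open (54.1 to 100%), with pileups from 52 to 185. Rpt5 had 185 (159 to 214), Rpt1 181 (156 to 209), Rpt6 159 (135 to 186) and Rpt4 126 (105 to 150). Rpt2 had 57 (43.2 to 73.9) and Rpt3 52 (38.8 to 68.2). The intervals of Rpt2 and Rpt3 lay wholly below those of the other 4, although all 6 proteins are built into the same ring. That of Rpt4 in turn lay wholly below those of Rpt1 and Rpt5. The summits of Rpt2 and Rpt3 lay 124 and 103 bp inside the gene, and those of the other 4 lay 12 to 39 bp outside. Rpt1, on 2R from 7652440 to 7653954, lies within CG17985 and was the only canonical gene inside another one, and its summit was 1098 bp from the nearest other gene end. The summit at Rpt5 lay 3 bp from the end of RanBP3 and 39 bp from its own end, and that at Rpt4 lay 28 bp from the end of mldr and 30 bp from its own.

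The 4 canonical base genes outside the ATPase ring were all open (39.8 to 100%), with pileups from 86 to 187. Rpn2 and Rpn1 encode the large scaffolds of the base. Rpn2 had 187 (161 to 216), at a summit 17 bp from the end of Slbp, the histone stem-loop binding protein gene, and 241 bp from its own. It also had summits of 86 at 8 bp outside its left end and of 118 at 154 bp past its right end. Rpn1 had 152 (129 to 178) at a summit 10 bp outside its left end and 1326 bp from any other gene's end. Of the ubiquitin receptors, Rpn13 had 167 (143 to 194) and Rpn10 had 86 (68.8 to 106). The summit at Rpn13 lay 219 bp past the gene and 52 bp from the end of CtsL1, a cathepsin gene. The local background there was 35.4 fragments, the highest at any canonical member, so the fold was only 4.61.

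All 8 canonical lid genes were open (63.1 to 100%), over the widest range of any part of the complex. Rpn8, partner of the deubiquitinase, on 2R from 24400028 to 24404527, led with 246 (216 to 279) at a summit 221 bp outside its left end, in an interval of 682 bp with a further summit of 175. The nearest end of another gene was 2873 bp from the main summit. Inside the gene, more than 250 bp from its ends, lay 4 more summits, of which the highest had 234. Rpn5 had 141 (119 to 166), Rpn7 139 (117 to 164), Rpn12 134 (112 to 159) and Rpn9 93 (75.1 to 114). Rpn11, the deubiquitinase itself, had 89 (71.5 to 110) at 16 bp past its right end. Rpn3 had 66 (51.0 to 84.0). Rpn6, a clamp between core and lid, was the lowest open canonical gene with 36 (25.2 to 49.8), at a summit 182 bp inside its right end. Rpn6 had 2 summits deeper inside the gene, the higher with 111, and its left end lay 1 bp from the end of AttB, an antimicrobial peptide gene. For Rpn6 the strongest accessible site was thus inside the gene and not at an end.

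Since a peak had to overlap the window of 250 bp to be counted, the distances of summits from the ends are bounded by the rule and are given as a description. Of the 31 strongest summits 16 lay within 50 bp of the gene's own end and 20 within 100 bp, with a median of 50 bp and a range of 2 to 259 bp. Outside the gene lay 21 and inside it 10. The median width of their intervals was 155 bp (73 to 682 bp). The number of summits at the ends was 1 for 15 genes, 2 for 13 and 3 for 3. A peak at both ends was found for 11 of the 32 canonical genes (34.4%), where 11.7% of all protein-coding genes had one. Among open genes only, the shares were 35.5% of the 31 canonical genes and 19.5% of all 8421. All of the 11 canonical genes but Rpn2 and Rpn5 had an end at which every summit lay nearer to another gene's end. The share of all genes was not split in this way. At these ends were 50 summits in all, and no member shared its strongest summit with another member.

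**Figure D3:**
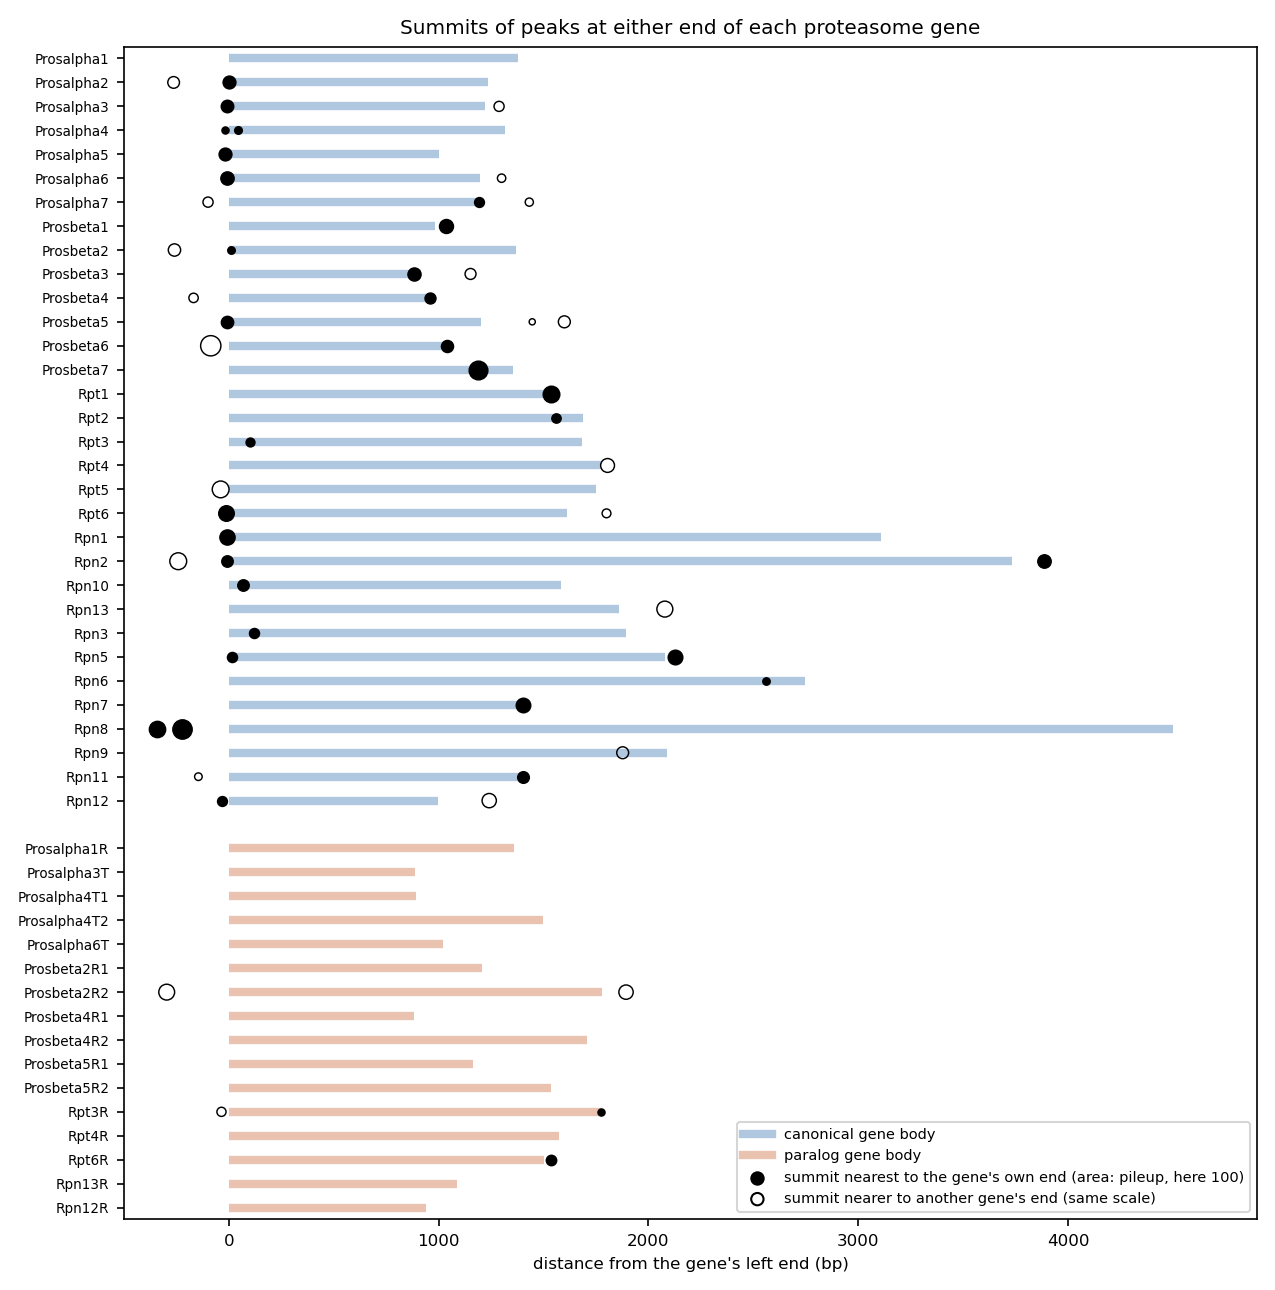
Summits of all peaks at the ends of the 48 genes, drawn as circles by distance in bp from the gene's left end (x axis), with gene bodies as bars and circle area in proportion to pileup. Filled circles lie nearest to the gene's own end and open circles nearer to the end of another gene, and 13 of the 16 paralogs have no circle.

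Neighbouring genes were close, and some of the strongest peaks lay nearer to a neighbour's end. Of the 32 canonical genes 28 had an end of another gene within 250 bp of an own end, against 8 of the 16 paralogs and 60.0% of all protein-coding genes. The median distance to that end was 91 bp for canonical genes, 281.5 bp for paralogs and 169 bp for all genes. Genes with such a neighbour were open more often in general, at 70.1% of 8365 against 45.8% of the other 5581. With a neighbour within 250 bp 27 of 28 canonical genes and 3 of 8 paralogs were open, and without one 4 of 4 and 0 of 8. The share of canonical genes was the higher one in both settings, but the counts are small. The part of close neighbours in the difference was not tested. Of the 31 strongest summits 22 lay no farther from the gene's own end than from that of another gene. When only such summits were counted, 27 canonical genes (84.4%) and 2 paralogs (12.5%) were open, against 53.0% of all genes. The 4 canonical genes that were then lost were Rpt4, Rpt5, Rpn9 and Rpn13. An end more than 1000 bp from every other gene's was present in 5 canonical genes and 11 paralogs. All 5 of the former were open there and 0 of the 11 latter, against 30.3% of all genes with such an end.

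Among the paralogs, 3 had a peak at an end, and they were Prosbeta2R2, Rpt3R and Rpt6R. Prosbeta2R2, on 3R from 5217751 to 5219528, had a pileup of 165 (141 to 192) and a fold of 9.50 at a summit 296 bp outside its left end and 1 bp from the end of cno, the gene for the junction protein Canoe. Its other summit, with 135 (113 to 160), lay 116 bp past its right end and 13 bp from the end of CG1116. Both summits of Prosbeta2R2 were thus nearer to a neighbour's end than to its own.

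Rpt3R and Rpt6R, both relatives of ATPase genes, had a summit at their own end. Rpt3R, on 3R from 9754735 to 9756510, had 55 (41.4 to 71.6) at 35 bp outside its left end, 14 bp from the end of Tti1, and 33 (22.7 to 46.3) at 1 bp past its right end, 20 bp from the end of Alg12. Rpt6R, on 3R from 30582198 to 30583697, had 71 (55.5 to 89.6) and a fold of 5.45 at 38 bp past its right end, and the nearest end of another gene was 285 bp from that summit. Rpt6R was the paralog whose peak was least shared with a neighbour.

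The other 13 paralogs had no peak at an end. They comprise all 5 paralogs of alpha genes (Prosalpha1R, Prosalpha3T, Prosalpha4T1, Prosalpha4T2 and Prosalpha6T), 5 of the 6 of beta genes (Prosbeta2R1, Prosbeta4R1, Prosbeta4R2, Prosbeta5R1 and Prosbeta5R2), Rpt4R, Rpn12R and Rpn13R. Prosalpha6T is known to be needed for sperm formation. The nearest summit was more than 1 kb from the gene in 11 of the 13 and more than 2 kb in 10, with a median of 4283 bp. Over all 5525 protein-coding genes without a peak at an end the median was 2184 bp, and in 67.1% of them the nearest summit was more than 1 kb away, so such distances are usual for a gene without a peak. At Rpn13R, which lies within rg, the distance was 47126 bp. At Prosbeta4R1 and Prosbeta4R2, which flank the odorant receptor gene Or23a on 2L, it was 23711 and 20535 bp. The shortest were at Prosbeta5R2, with a weak summit of 23 inside the gene 580 bp from an end, and at Prosalpha6T, with a summit of 22 at 473 bp. The lowest pileup in the whole list was 20, so these were among its weakest summits. For a gene without a peak the list gives no pileup, so a weaker signal at these ends was not detectable with it.

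**Figure D4:**
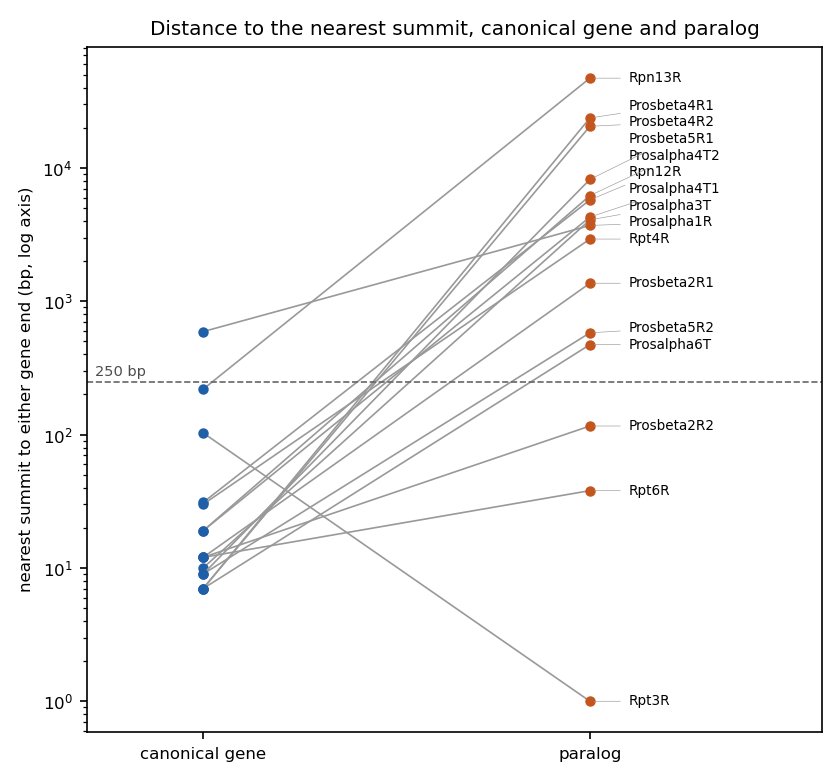
Distance in bp from either end of a gene to the nearest summit (log y axis) for the canonical gene and for its paralog, joined by a line for each of 16 pairs, with a dashed line at 250 bp. For 13 paralogs the distance is above the line, up to 47126 bp at Rpn13R, while among the canonical genes it is above the line for Prosalpha1 alone, at 592 bp.

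Set side by side in 16 pairs, which draw on 12 canonical genes, the canonical gene alone was open in 12, both genes in 3, neither in 1 and the paralog alone in 0. In the pairs with both open the order of the strongest peaks differed, but some of these lay nearer to a neighbour's end. Rpt6 had 159 against 71 at Rpt6R, a ratio of 2.24 with intervals that did not overlap. Rpt3 had 52 against 55 at Rpt3R, with overlapping intervals. The summit of 55 lay nearer to the end of Tti1, and the summit nearest to Rpt3R's own end had 33. Prosbeta2 had 100 against 165 at Prosbeta2R2, and in both of these genes the summit lay nearest to another gene's end. Nearest to its own end Prosbeta2 had a summit of 37, and Prosbeta2R2 had none. The paralogs were not longer or shorter than the canonical genes to a large degree, with a median length of 1282 bp (881 to 1778) against 1390 bp (914 to 4500), where that of all protein-coding genes was 2161 bp.

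Genes that serve the proteasome were open at their ends in every case on the lists for regulation and for ubiquitin supply. Of 10 genes for assembly, regulation and transcription all were open, against the 60.4% of all genes, with a median pileup of 84.5 and a range of 46 to 368. The highest was cnc, the gene of the Nrf-family transcription factor that induces proteasome genes, with 368 (331 to 408), and its partner gene maf-S had the lowest with 46 (33.7 to 61.4). Pomp, the gene of the maturation factor of the core particle, had 128 (107 to 152). Sem1, a small lid subunit outside the naming rule, had 110 (90.4 to 133). REG, which encodes another cap of the core particle, had 59 (44.9 to 76.1). The 12 genes for ubiquitin supply and shuttling were also all open, with a median of 141. Rad23, a shuttle for ubiquitinated proteins on chromosome 4, was highest with 246 (216 to 279), and rngo, the fly Ddi1 gene, lowest with 55 (41.4 to 71.6).

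The COP9 signalosome, a relative of the lid that removes the ubiquitin-like Nedd8 from cullins, had 8 of its 9 listed genes open (88.9%, 51.8 to 99.7%). This interval includes the 60.4% of all genes. The median pileup was 109.5. CSN6 had 216 (188 to 247) and CSN3 had 197 (170 to 227), and CSN5, the catalytic relative of Rpn11, had 30 (20.2 to 42.8). The exception was CSN1a, while CSN1b, which encodes the same subunit type, had 91 (73.3 to 112).

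The split between common gene and testis paralog was also seen outside the proteasome, on a smaller list. That list was chosen with earlier results of these data known, so it is no independent check. Of 11 ubiquitous genes with a testis counterpart all were open, with a median pileup of 170. Of the 10 testis counterparts found in the annotation 3 were open (30%, 6.67 to 65.2%), an interval that includes the 60.4% of all genes. The 3 were eIF4G2 with 270 (239 to 304), Cyt-c-d with 141 (119 to 166) and mia with 132 (110 to 157). Without a peak at an end were betaTub85D, eIF4E3, Porin2, nht, can, sa and RpL22-like. Of the markers of the labelled line, all 6 hemocyte genes examined were open (54.1 to 100%), eater with 201 and NimC1 with 33 among them. Of 7 germline and testis markers, which include can and sa from the list above, 2 were open (28.6%, 3.67 to 71.0%), topi with 180 and vas with 48. Both intervals include the 60.4% of all genes, so these counts do not settle the identity of the line.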

How the data were processed

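The 2 ATAC-seq libraries of S2 cells were amplified for 12 cycles, per the labels' protocols. The submitters' processing notes name Bowtie2, MACS2, deepTools and the build dm6, without versions or settings. No source used here gives how libraries were pooled, reads shifted for the transposase, or duplicates and reads with several matches treated. These steps can move a summit by some bases, change its height or empty a repeated locus. The authors deposited 1 list with interval bounds, summit offsets, a score (not used further), a fold or ratio of summit to local background, and the −log10 of p-values and q-values. Depth per library is unknown.

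Pileups were solved from the deposited fold and −log10 p under a Poisson tail with a pseudocount of 1. A match within 0.001 was found for 35535 of 35535 lines, with a largest residual of 0.000521. On simulated data 3000 of 3000 pileups were recovered. If mates were counted separately, the intervals are too narrow. Positions are counted from 1. In 65 lines without a summit the interval's middle was used.

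Gene ends came from the RefSeq table of Release 6 plus ISO1 MT, which gives neither strand nor sequence, with 17807 genes on 7 chromosome arms or chromosomes. A peak counted when it overlapped a window by 1 bp. T1 and T2 endings were put with the paralogs. Members and lists were chosen with earlier results of these data known. Of the listed genes outside the family, 2 had no match (rye and nos) and 2 matched by synonym. All members could be named. Full values were set for the 5 highest and 3 lowest open canonical genes, canonical genes without a peak, open paralogs and catalytic subunits. The planned search for promoter motifs was not run, as no sequence was used here. Python 3.11.15, scipy 1.17.1 and pandas 2.3.3 were used.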

Additional observations from a re-analysis of the deposited data

How the results depend on the processing

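Under 11 alternatives the canonical share stayed between 84.4% and 100% and the paralog share between 0% and 31.3%. The share of all genes ran from 30.3% to 71.9% over the same settings. The canonical 84.4%, from summits nearest to the gene's own end, stood beside 53.0% of all genes. The paralog 31.3%, with a window of 1000 bp, stood beside 71.9%. The canonical share was 100% with a window of 1000 bp (all genes 71.9%) and at the 5 genes with isolated ends (all genes 30.3%). Without Prosalpha1 and Prosalpha1R it was 100% by construction (all genes 60.4%), since Prosalpha1 was the only canonical gene without a peak. At isolated ends the paralog share was 0% of 11 genes, against 30.3% of all genes. The canonical median pileup there was 159 and median fold 9.64 over the 5 genes, against 94 and 6.78 over all genes open there. Medians were computed in 9 alternatives, not for strict endings or without the Prosalpha1 pair. In the 8 others the median pileup ran from 103 to 127 and the median fold from 7.44 to 8.79. With strict endings T, R, R1 or R2, which put Prosalpha4T1 and Prosalpha4T2 with the canonical genes, the shares were 91.2% of 34 and 21.4% of 14. Counting only summits nearest to the gene's own end, and leaving out the Prosalpha1 pair, were chosen after seeing the data. The alternatives with only the 5′ start and without near-identical proteins were not run, for want of strand and sequence here. No paired analysis was possible because there was 1 group and no value per library. A pileup under 20 is not in the list, which limits what can be said of genes without a peak.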
